A study of Homo sapiens with 6 samples.

Results

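The transcripts described here are those of 10 heat shock chaperones and cofactors, namely HSPA1A, HSPA1B, HSPA8, DNAJB1, HSPH1, BAG3, HSP90AA1, HSP90AB1, CHORDC1 and HSPB1. They were taken as the rows of the deposited expression table whose gene symbol is exactly one of these names, which gave 10 of 31628 genes, each with 1 row. Poly(A)-selected RNA was sequenced from HCT116, a human colon cancer cell line. In all groups the ENL gene (MLLT1), which encodes a reader of acetylated histones, carried an auxin-inducible degron, a tag that leads a protein to degradation when auxin is present, and the cells stably expressed the plant E3 ligase AtAFB2 that auxin binding couples to the tag. IAA cells had 3 h of auxin at 500 um, as the labels spell the dose. Washout cells had the same auxin, were washed with PBS and then grew for 48 h without it, and control cells had no auxin. AID clones had been selected in puromycin and blasticidin, and the sources used here give neither the number of clones nor what a replicate number stands for. Each group had 2 libraries, so p-values measure only the spread between these samples, which may be technical. No group had auxin without the ligase or the tag, so degradation of ENL and auxin itself cannot be told apart.

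Heat shock proteins hold unfolded or aggregation-prone proteins until they fold. HSP70 proteins (HSPA1A, HSPA1B, HSPA8) bind short unfolded stretches in a cycle of ATP hydrolysis, in which J-domain proteins such as DNAJB1 deliver the client and start the hydrolysis, and exchange factors such as HSPH1 and the BAG proteins release it. HSP90 proteins (HSP90AA1, HSP90AB1) finish the folding of many kinases and receptors, and small heat shock proteins such as HSPB1 hold clients without ATP. When unfolded protein accumulates, the transcription factor HSF1 is released from these chaperones, binds inverted repeats of GAA (heat shock elements) in their promoters and raises their transcription. HSPA8 and HSP90AB1 are known as the constitutive forms, and HSPA1A and HSPA1B as the strongly inducible ones.

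MLLT1 transcript, which encodes the tagged protein, stood at 0.404 and 0.358 FPKM (fragments per kilobase of gene, scaled to library size) in IAA cells, 0.413 and 0.384 FPKM in washout cells and 0.412 and 0.427 FPKM in control cells. The degron acts on the protein, so these values do not show whether ENL was degraded. Library totals read from the FPKM steps were 16440000 to 16770000 reads. The recovered reads of all genes summed to 17280190 to 17580269 per library, 104.7 to 105.1% of these totals, and the reason was not tested. Of 10 colon epithelial markers 7 reached a mean of 1 FPKM, led by KRT18 (156 FPKM), KRT19 (121 FPKM) and KRT8 (26.4 FPKM), while CDX1 and CEACAM5 were listed at 0. Of 13 fibroblast, endothelial and blood markers with a row, 0 reached 1 FPKM, and CD3E was listed at 0. The summed epithelial markers themselves differed between groups, at 268 to 273 FPKM in IAA cells, 323 to 340 FPKM in washout cells and 336 to 346 FPKM in control cells, and their part in the results was not tested. The lower IAA sums come from KRT8, KRT18 and KRT19.

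The promoters of 5 members are shown because these members differ in what the libraries show below: HSPA1B, DNAJB1 and BAG3 were higher in IAA cells, while HSPA8 and CHORDC1 were not. Each line gives the 150 bases before a transcription start, 5′ to 3′ on the gene's own strand, from RefSeq on GRCh38.p14, and capitals mark every GAANNTTC and TTCNNGAA, the paired units of a heat shock element.
HSPA1B (chr6:31827588-31827737, plus strand): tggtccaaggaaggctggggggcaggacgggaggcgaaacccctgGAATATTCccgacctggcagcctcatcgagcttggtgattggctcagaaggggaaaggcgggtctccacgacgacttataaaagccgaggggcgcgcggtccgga
DNAJB1 (chr19:14518398-14518547, minus strand): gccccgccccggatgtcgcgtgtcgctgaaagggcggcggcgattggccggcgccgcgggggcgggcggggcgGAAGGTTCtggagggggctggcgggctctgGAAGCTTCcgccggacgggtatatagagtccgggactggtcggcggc
BAG3 (chr10:119651230-119651379, plus strand): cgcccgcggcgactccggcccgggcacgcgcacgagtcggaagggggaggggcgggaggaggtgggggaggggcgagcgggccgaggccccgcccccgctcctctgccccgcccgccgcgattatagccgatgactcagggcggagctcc
HSPA8 (chr11:123062137-123062286, minus strand): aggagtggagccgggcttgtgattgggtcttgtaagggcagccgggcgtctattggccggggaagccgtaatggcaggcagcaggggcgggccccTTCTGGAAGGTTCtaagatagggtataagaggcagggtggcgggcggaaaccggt
CHORDC1 (chr11:90223050-90223199, minus strand): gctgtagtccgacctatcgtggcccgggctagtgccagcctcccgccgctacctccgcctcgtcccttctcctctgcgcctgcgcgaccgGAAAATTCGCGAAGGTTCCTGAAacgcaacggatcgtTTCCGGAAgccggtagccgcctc
HSPA1B has 1 such pair in this window and DNAJB1 has 2, each a GAANNTTC, while the BAG3 window has none. HSPA8 has TTCTGGAAGGTTC, and in CHORDC1 the units run on without a break through GAAAATTCGCGAAGGTTCCTGAA. The DNAJB1 start is the one of its 3 RefSeq starts whose window holds matches.

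Both strands were searched over the 250 bases before each start. GAANNTTC was present for 8 of the 10 members (all but HSPH1 and BAG3), against 7.05% of 27305 genes, and TTCNNGAA for 4 members, against 8.12% of genes. These motifs overlap in the 3-unit form GAANNTTCNNGAA or its reverse complement TTCNNGAANNTTC, which was present for HSPA8, HSP90AA1, HSP90AB1 and CHORDC1 and in 0.557% of genes. TATAAA was found for HSPA1A and HSPA1B only among the members, against 13.0% of genes. A match is a run of letters and not a measured site, and no match says only that the letters are not in this window.

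With IAA, 3 of the 10 transcripts were higher than in control cells, the inducible HSP70 gene HSPA1B, its J-domain partner DNAJB1 and the exchange factor BAG3, and 0 were lower. Over all 8317 genes tested 6.64% were higher and 6.49% lower, 13.1% in all. The test was limma on log2(FPKM + 1) with Benjamini-Hochberg adjustment over all genes at a mean of 1 FPKM or more, two-sided, and a transcript counts as changed at an adjusted p under 0.05. All 10 members passed this filter. After washout, 4 members were lower than with IAA, the same 3 and HSP90AA1, and 0 were higher, where 6.65% of genes were lower and 7.73% higher. Between washout and control cells limma called 0 of the 10 members and 0 of all genes (0%). Without adjustment 750 genes (9.0%) and 2 members had p under 0.05 there, and limma's voom on recovered reads called 94 genes (0.636%) in the same comparison.

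**Figure D1:**
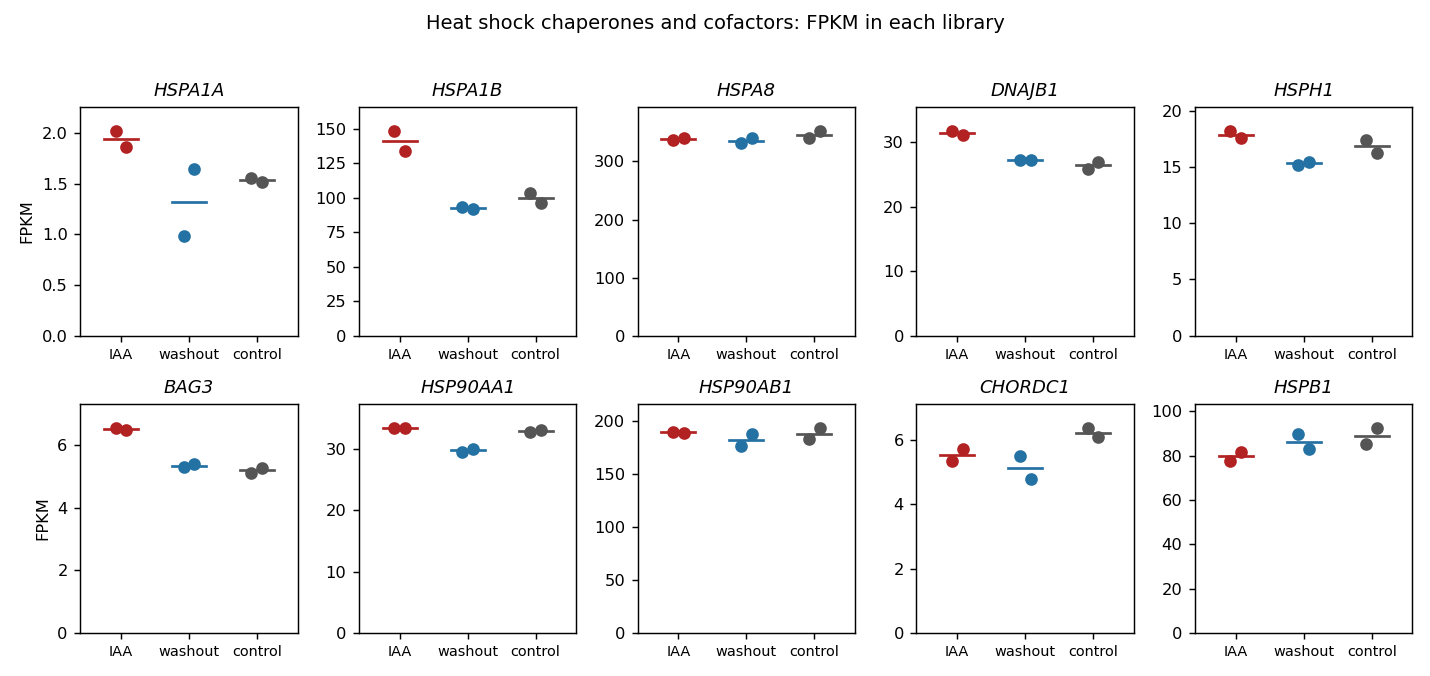
FPKM of each of the 10 members in every library, with 1 panel per gene, points for libraries, a bar for the mean of the 2 libraries of a group, and each vertical axis from 0. HSPA1B, DNAJB1 and BAG3 stand higher in both IAA libraries than in all 4 others, HSPA8 hardly moves, and HSPA1A has its lowest value in 1 washout library.

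HSPA1B (ENSG00000204388.5; GRCh38 chr6:31827735-31830255, plus strand, a gene without introns) encodes the stress-inducible HSP70. Its level was 148 and 134 FPKM in IAA cells, 93.0 and 91.9 FPKM in washout cells, and 103 and 96.0 FPKM in control cells. Both IAA libraries lay above all others, and both washout libraries lay slightly below both control libraries. The mean was 141 ± 9.83 FPKM in IAA cells and 99.5 ± 4.93 FPKM in control cells (SD, n = 2 each), a ratio of 1.42, and the log2 change was 0.50 with an SE of 0.06 (limma, adjusted p = 0.0163). Of the 8317 genes, 191 had a larger increase. With 92.4 ± 0.802 FPKM in washout cells (SD, n = 2), the washout minus IAA change was -0.60 with an SE of 0.06 (adjusted p = 0.0127), a decrease that 121 genes exceeded. Washout minus control was -0.10 with an adjusted p of 0.639. Its exons overlap AL671762.1 on the same strand in GENCODE 29. In RNA from a whole culture, fewer cells with the transcript and less of it per cell cannot be told apart, here or for any other member.

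HSPA1A (ENSG00000204389.8; GRCh38 chr6:31815464-31817946, plus strand, without introns) is the neighbouring gene for the same inducible HSP70. Its row held few reads, 81 and 76 in IAA cells, 40 and 67 in washout cells and 63 and 62 in control cells. In FPKM this was 2.02 and 1.86 with IAA, 0.984 and 1.65 after washout and 1.56 and 1.52 in control. The IAA libraries were highest and did not overlap the others, while the washout libraries lay on both sides of control. The changes did not pass the test, at 0.21 with an SE of 0.14 for IAA minus control (limma, adjusted p = 0.368) and -0.36 for washout minus IAA (adjusted p = 0.159).

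The pair is nearly identical: 71.4% of the 50-base windows of HSPA1B also occur in HSPA1A. A stretch from the middle of the reading frame is shown for both, and it has no mismatch in 60 bases, so nothing is in capitals.
HSPA1B: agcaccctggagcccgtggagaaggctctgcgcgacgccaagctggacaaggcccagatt
HSPA1A: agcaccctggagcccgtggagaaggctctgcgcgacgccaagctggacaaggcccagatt
The HSPA1A row held 1.30% (Wilson 95% interval 1.05 to 1.62%) and 1.32% (1.06 to 1.65%) of the pair's reads in the IAA libraries. It held 1.01% (0.743 to 1.37%) and 1.71% (1.35 to 2.16%) in the washout libraries, and 1.44% (1.13 to 1.84%) and 1.51% (1.18 to 1.93%) in the control libraries. These intervals cover counting error only. The split was very unequal in every library, and the washout libraries lay farthest apart. How the authors' counting divided reads that fit both genes was not given, so the level of each gene alone is uncertain. Summed, the pair had 150 and 136 FPKM in IAA cells, 94.0 and 93.5 FPKM in washout cells and 105 and 97.5 FPKM in control cells. The summed pair gave 0.50 for IAA minus control (SE 0.06, limma adjusted p = 0.0163) and -0.60 for washout minus IAA (adjusted p = 0.0125). Nearly all reads of the sum lay on the HSPA1B row, so the sum had to stay close to that row. The change therefore holds for the pair, and how much of it belongs to each gene was not tested.

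HSPA8 (ENSG00000109971.9; GRCh38 chr11:123057489-123063230, minus strand) encodes the constitutive HSP70 of the cytosol, which also strips clathrin from vesicles. Its level was 337 and 341 FPKM in IAA cells, 331 and 341 FPKM in washout cells and 340 and 352 FPKM in control cells. The groups overlapped in all 3 comparisons. Its log2 changes were -0.03 (SE 0.03) for IAA minus control, -0.01 for washout minus IAA and -0.04 for washout minus control, with limma adjusted p-values of 0.604, 0.825 and 0.716. The small nucleolar RNA genes SNORD14C and SNORD14D that overlap its exons were listed at 0 reads.

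**Figure D2:**
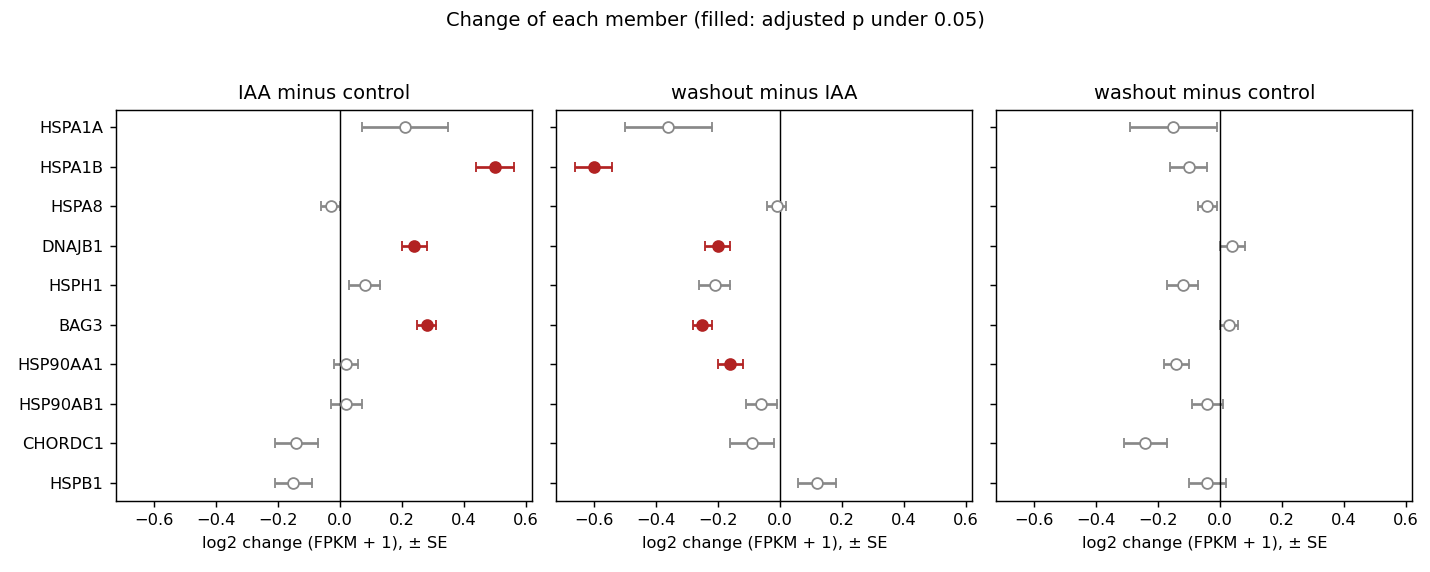
Log2 change of each member on the log2(FPKM + 1) scale, in 1 panel per comparison, with bars of 1 SE from limma and filled points for an adjusted p under 0.05. HSPA1B has the widest change among the members with IAA (0.50) and after washout (-0.60), and no point is filled for washout minus control.

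DNAJB1 (ENSG00000132002.3; GRCh38 chr19:14514770-14529770, minus strand) encodes the main inducible J-domain partner of HSP70 in the cytosol, known as HSP40. It had 31.7 and 31.1 FPKM in IAA cells, 27.3 and 27.2 FPKM in washout cells and 25.9 and 27.0 FPKM in control cells. Both IAA libraries were above the other 4, and both washout libraries lay just above control. The mean of 31.4 ± 0.472 FPKM in IAA cells was 1.19 times that of 26.4 ± 0.809 FPKM in control cells (SD, n = 2 each), a log2 change of 0.24 (SE 0.04, limma adjusted p = 0.0289). Washout cells averaged 27.2 ± 0.0655 FPKM (SD, n = 2), and washout minus IAA was -0.20 (SE 0.04, adjusted p = 0.0418). Exons of DNAJB1 overlap those of TECR on the other strand in GENCODE 29. Which strand was counted is unknown here, and TECR itself had between 177 and 208 reads per library, against 6446 to 7825 for DNAJB1.

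BAG3 (ENSG00000151929.5; GRCh38 chr10:119651370-119677819, plus strand) encodes an exchange factor that links HSP70 to selective autophagy and to small heat shock proteins. Its level was 6.53 and 6.49 FPKM in IAA cells, 5.29 and 5.38 FPKM in washout cells and 5.10 and 5.28 FPKM in control cells. The IAA libraries almost coincided and lay above all others. The means were 6.51 ± 0.0281 FPKM in IAA cells and 5.19 ± 0.130 FPKM in control cells (SD, n = 2 each), a ratio of 1.25 and a log2 change of 0.28 (SE 0.03, limma adjusted p = 0.0158). After washout the mean was 5.34 ± 0.0597 FPKM (SD, n = 2), 0.820 times that with IAA, with a log2 change of -0.25 (SE 0.03, adjusted p = 0.0205). BAG3 had no exon overlap with another gene and no pseudogene in the search described below, so these 2 limits do not apply to it.

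HSPH1 (ENSG00000120694.15; GRCh38 chr13:31134974-31162388, minus strand), also called HSP110, encodes the inducible exchange factor that reopens HSP70 and takes part in dissolving aggregates. It had 18.2 and 17.6 FPKM in IAA cells, 15.2 and 15.5 FPKM in washout cells and 17.4 and 16.3 FPKM in control cells. The IAA libraries were highest by a small margin and the washout libraries were lowest. IAA minus control was 0.08 (SE 0.05, limma adjusted p = 0.312). Washout minus IAA was -0.21 (SE 0.05) with an adjusted p of 0.0547, and voom on the recovered reads gave -0.22 with an adjusted p of 5.55e-05.

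The calls rest on both libraries of each group. Calls over all genes also fell when a single IAA or control library was left out, as given below. Leaving out any one IAA or control library took the adjusted p to between 0.0572 and 0.0896 for HSPA1B, 0.083 and 0.0891 for BAG3 and 0.0993 and 0.134 for DNAJB1, with the direction kept each time. DNAJB1 also missed the threshold without either washout library, at 0.0648. In washout minus IAA, HSPA1B missed it without any one IAA or washout library (0.0509 to 0.0730) and kept it without either control library (0.0370), while BAG3 (0.0522 to 0.102) and DNAJB1 (0.0738 to 0.164) missed it without any one of the 6. The single library then left in a group was assumed to vary like the other groups.

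HSP90AA1 (ENSG00000080824.14; GRCh38 chr14:102080738-102139699, minus strand) encodes the inducible HSP90 of the cytosol. Its level was 33.4 and 33.4 FPKM in IAA cells, 29.6 and 30.0 FPKM in washout cells and 32.8 and 33.1 FPKM in control cells. IAA and control libraries were close together, without overlap, and the washout libraries lay below both. IAA minus control was 0.02 (SE 0.04, limma adjusted p = 0.740), on the other side of 0 after rescaling to TPM (-0.014). Washout minus IAA was -0.16 (SE 0.04) with an adjusted p of 0.0488, just inside the threshold. It missed the threshold under several other settings, among them TPM (0.0954), a median-ratio scaling (0.0503) and leaving out any one library (0.0977 to 0.170). Washout minus control was -0.14 with an adjusted p of 0.522 in limma and 0.00165 with voom on recovered reads. WDR20, whose exons overlap those of HSP90AA1 on the other strand, had 785 to 924 reads per library, against 29176 to 33059 for HSP90AA1.

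HSP90AB1 (ENSG00000096384.15; GRCh38 chr6:44246166-44253888, plus strand) encodes the constitutive HSP90. It had 190 and 189 FPKM in IAA cells, 176 and 188 FPKM in washout cells and 183 and 193 FPKM in control cells. IAA and washout libraries overlapped with control, and only washout and IAA stood apart from each other. None of its 3 changes passed the test, at 0.02, -0.06 and -0.04 for IAA minus control, washout minus IAA and washout minus control (SE 0.05, limma adjusted p-values 0.853, 0.440 and 0.786).

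CHORDC1 (ENSG00000110172.7; GRCh38 chr11:90201160-90223364, minus strand) encodes a cochaperone that binds HSP90, also called CHP-1. It had 5.37 and 5.73 FPKM in IAA cells, 5.50 and 4.80 FPKM in washout cells and 6.37 and 6.10 FPKM in control cells. The control libraries lay above the other 4. IAA minus control was -0.14 (SE 0.07, limma adjusted p = 0.231) and washout minus control -0.24 (SE 0.07, adjusted p = 0.524). With voom on recovered reads these were -0.17 (adjusted p = 0.0332) and -0.28 (adjusted p = 0.0147), so its call depends on the test. Its exons overlap AP002364.1 on the other strand.

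HSPB1 (ENSG00000106211.8; GRCh38 chr7:76302544-76304295, plus strand), or HSP27, encodes the main small heat shock protein of many epithelial cells. Its level was 77.7 and 81.6 FPKM in IAA cells, 89.6 and 83.2 FPKM in washout cells and 85.3 and 92.3 FPKM in control cells. The IAA libraries were lowest and did not overlap the others. IAA minus control was -0.15 (SE 0.06, limma adjusted p = 0.177; voom adjusted p = 0.0329), and washout minus IAA was 0.12 (adjusted p = 0.275).

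Taking overlap alone, 6 of the 10 members had both IAA libraries above both control libraries (HSPA1A, HSPA1B, HSPH1, HSP90AA1, DNAJB1 and BAG3), where 33.7% of all genes did. CHORDC1 and HSPB1 had both IAA libraries below, as 28.2% of genes had. After washout 7 members lay below both IAA libraries (30.7% of genes), the same 6 and HSP90AB1, and HSPB1 lay above (31.4%). Against control, HSPA1B, HSPH1, HSP90AA1 and CHORDC1 were lower without overlap in washout cells (17.8% of genes) and DNAJB1 and BAG3 were higher (24.4%), while 42.2% of genes were apart in either direction. The median log2 change of the members was 0.05 for IAA minus control (0.014 over all genes), -0.18 for washout minus IAA (0 over all genes to 2 decimals) and -0.07 for washout minus control (0.010 over all genes). The comparisons share libraries, so their values stand side by side only. Rescaled to TPM, the genes called with IAA split into 397 higher and 647 lower, against 552 and 540 in FPKM, and those after washout against IAA into 804 and 400, against 643 and 553. HSPA1B and BAG3 were called in both comparisons under that scaling, and DNAJB1 with IAA but not after washout (adjusted p = 0.0612).

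With voom on the recovered reads, limma's method for counts, 5 members were called in IAA minus control (24.1% of 14783 genes in either direction), HSPA1B, DNAJB1 and BAG3 as higher (13.9% of genes) and CHORDC1 and HSPB1 as lower (10.2%). In washout minus IAA, where 25.2% of genes were called, 5 members were lower (13.6% of genes), HSPA1B, DNAJB1, BAG3, HSP90AA1 and HSPH1, and 0 were higher (11.5%). In washout minus control HSP90AA1 and CHORDC1 were lower (0.331%).

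Processed pseudogenes, intronless copies of a messenger RNA elsewhere in the genome, held many reads that resemble the members. Of 23 pseudogenes whose transcript aligns to a member with at least 80% identity over at least 50% of its length, 22 had reads. The pseudogene without reads was HSPA7, which is annotated as unprocessed. Together the pseudogenes averaged 89596 reads per library, against 111173 at the 10 members, which is 44.6% of the total. A stretch of HSP90AB1 beside HSP90AB3P, and of DNAJB1 beside DNAJB1P1, shows how alike they are. Capitals mark the mismatched bases.
HSP90AB1: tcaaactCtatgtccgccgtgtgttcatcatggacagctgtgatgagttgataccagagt
HSP90AB3P: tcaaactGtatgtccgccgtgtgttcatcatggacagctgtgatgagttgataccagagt
DNAJB1: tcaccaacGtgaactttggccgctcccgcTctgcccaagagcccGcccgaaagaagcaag
DNAJB1P1: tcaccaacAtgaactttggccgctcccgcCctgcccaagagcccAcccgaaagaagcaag
HSP90AB3P lies on chromosome 4 and HSP90AB1 on chromosome 6, and their alignment runs over 2175 bases at 97.1% identity. DNAJB1P1 lies on chromosome 2 and DNAJB1 on chromosome 19, with 93.8% identity over 1024 bases. Of the 50-base windows of HSP90AB3P, 19.3% also occur in HSP90AB1, and of those of DNAJB1P1, 5.8% occur in DNAJB1. The share was 71.4% for HSPA1B windows in HSPA1A, so these copies are less alike than that pair.

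**Figure D3:**
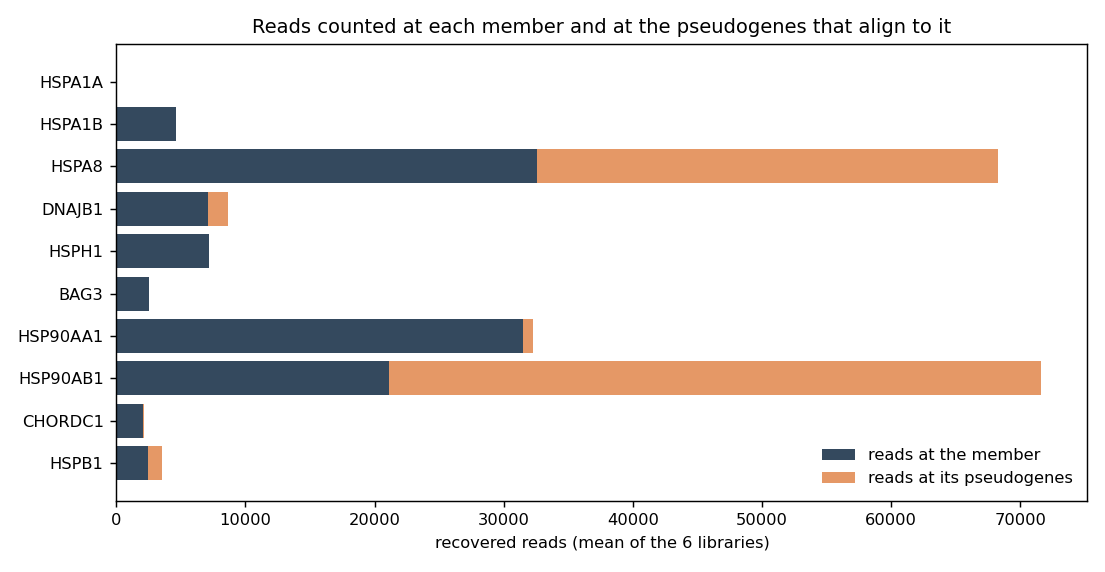
Recovered reads at each member (dark) and at the pseudogenes that align to it (light), as the mean of the 6 libraries. HSP90AB1 holds 29.5% and HSPA8 47.7% of their pooled reads, while HSPA1B, HSPH1 and BAG3 hold all of theirs.

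The HSP90AB1 row held 29.5% of the reads pooled with its pseudogenes (28.4 to 30.4% by library), and HSP90AB3P alone averaged 50269.2 reads. HSPA8 held 47.7% (46.6 to 48.5%), with 11 pseudogenes led by HSPA8P8 at 14093.0 reads. HSPB1 held 70.0%, DNAJB1 82.1%, HSP90AA1 97.6% and CHORDC1 98.6%. Whether the reads at a pseudogene row came from it or from the member cannot be told apart in these values.

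DNAJB1P1 itself had 107 and 103 FPKM in IAA cells, 81.3 and 81.4 FPKM in washout cells and 86.6 and 83.9 FPKM in control cells. It was the only one of these pseudogenes that limma called, at 0.30 (SE 0.04, adjusted p = 0.0179) for IAA minus control and -0.36 (adjusted p = 0.0130) for washout minus IAA, the directions seen at DNAJB1. HSP90AB3P had 1493 and 1440 FPKM in IAA cells, 1292 and 1361 FPKM in washout cells and 1373 and 1375 FPKM in control cells. Both IAA libraries were the highest, with a change of 0.09 for IAA minus control (SE 0.03, limma adjusted p = 0.147; voom adjusted p = 0.00333).

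Pooling each member's reads with its pseudogenes, and HSPA1A with HSPA1B, left 9 units, of which voom called 4 higher (13.9% of 14762 genes) and 2 lower (10.2%) in IAA minus control, where 24.1% of genes were called in all. The one added to the calls at single rows was HSP90AB1, with 74811 and 74340 pooled reads in IAA cells, 67169 and 70642 in washout cells and 70391 and 72302 in control cells. Both IAA libraries were above the rest, with a log2 change of 0.07 (SE 0.022, voom adjusted p = 0.0159). In washout minus IAA, where 25.2% of genes were called, 6 units were lower (13.6%) and HSPB1 was higher (11.6% of genes), at 0.13 with an adjusted p of 0.0492. HSP90AB1 was again among the lower ones, at -0.12 (SE 0.022, adjusted p = 6.93e-05). The HSP90AB1 row alone gave 0.02 and -0.06 in these comparisons and was called in neither, while the HSP90AB3P row alone passed voom in both (0.09 and -0.14, adjusted p = 0.00333 and 1.53e-05). The pooled call therefore comes with the pseudogene row. Whether it is a call for HSP90AB1 depends on where those reads came from, which cannot be told apart here. Pooled HSPA8 was not called, at -0.01 for IAA minus control (adjusted p = 0.756). In washout minus control 2 units were lower, HSP90AA1 and CHORDC1, where 0.630% of genes were called.

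**Figure D4:**
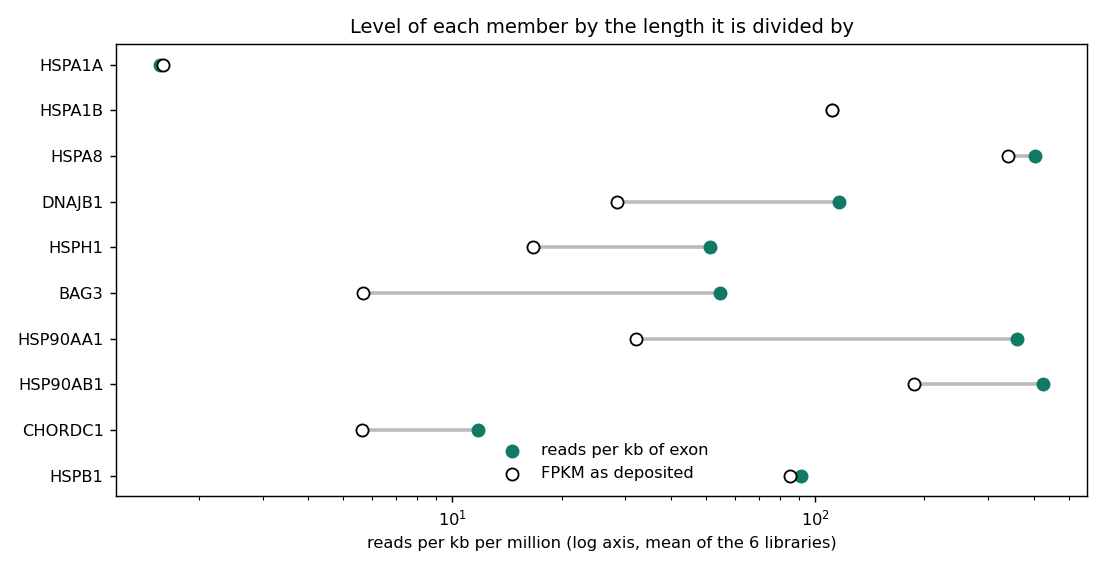
Mean level of each member over the 6 libraries on a log axis, as FPKM deposited (open) and as the same quantity divided by exon length (filled). The gap is widest for HSP90AA1 (32.0 FPKM against 360 by exon length) and BAG3 (5.68 FPKM against 54.7), the members with the longest spans relative to their exons.

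Levels of different members can be compared only per length, and the deposited FPKM divide by the whole gene span, introns included, for most genes. Of 4126 low genes whose span was over 2 times the exon length, 85.2% gave whole reads with the span and 2.2% with the exon length. HSP90AA1 spans 58962 bases with 5248 bases of exon, a ratio of 11.2, so its FPKM of 32.0 understates it beside HSPA1B, whose span and exons have the same length. Exon length here counts the annotated exon bases of the whole gene, not those of a single messenger RNA. It was 4849 of the 5742 bases of span for HSPA8, 8390 bases for HSPH1 and 10655 for CHORDC1. Which transcripts were present was not tested, so the order below holds for this length only. Divided by exon length on the same scale, HSP90AB1 (402 to 440 over the 6 libraries) and HSPA8 (392 to 416) had the highest values, and their ranges overlap. HSP90AA1 followed at 333 to 376, without overlap. DNAJB1 (106 to 130), HSPA1B (91.8 to 148) and HSPB1 (83.3 to 99.0) formed the next tier, in which HSPA1B overlapped both others. BAG3 (49.1 to 62.9) and HSPH1 (46.7 to 55.8) overlapped each other, and CHORDC1 (10.0 to 13.3) and HSPA1A (0.964 to 1.98) stood lowest. Only reads at the members' own rows are in these levels. Those of HSP90AB1, HSPA8, HSPB1 and DNAJB1 above all would be higher if reads at their pseudogenes belonged to them, and the order could then differ. The places of HSPA1A and HSPA1B depend on how reads that fit both were divided, which was not given.

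The regulator of the family, HSF1, had 3.39 and 3.61 FPKM in IAA cells, 3.60 and 3.49 FPKM in washout cells and 3.51 and 3.70 FPKM in control cells. The groups overlapped, and its log2 change was -0.03 for IAA minus control (limma adjusted p = 0.638). HSF2, a related factor, was below the filter with 0.388 and 0.371 FPKM in IAA cells, 0.385 and 0.377 FPKM in washout cells and 0.328 and 0.325 FPKM in control cells, and voom gave 0.21 for IAA minus control with an adjusted p of 0.316. HSPA6, an HSP70 gene that is silent in most unstressed cells, had 1 and 2 reads in IAA cells, 0 and 0 in washout cells and 0 and 2 in control cells. CRYAB, the small heat shock protein of lens and muscle, had 1 and 1 reads in IAA cells, 1 and 4 in washout cells and 2 and 0 in control cells, so neither was detectable above single reads.

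Around the members, 10 lists of related genes held 110 names, of which 109 were in the table and 83 were tested. With IAA 6 of the 83 were higher (7.23%) and 2 lower (2.41%), and after washout 1 was higher (1.20%) and 6 lower (7.23%) than with IAA. These shares stand beside the 6.64% and 6.49% of all genes with IAA, and the 7.73% and 6.65% after washout. Of 14 tested HSP90 cochaperones and 8 subunits of the cytosolic chaperonin CCT, 0 were called by limma in any comparison, with median changes for IAA minus control of 0.02 and -0.07. By voom, which tested 100 of the listed genes, 18 (18%) were higher and 6 (6%) lower with IAA, beside 13.9% and 10.2% of all genes. After washout 5 (5%) were higher and 19 (19%) lower than with IAA, beside 11.5% and 13.6%. The 18 cochaperones tested by voom went both ways, with SUGT1 higher and NUDCD1 lower with IAA, and NUDCD1 higher and SUGT1, PPID and AHSA1 lower after washout than with IAA. Of the CCT subunits, CCT4 and CCT5 were higher after washout than with IAA by voom.

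**Figure D5:**
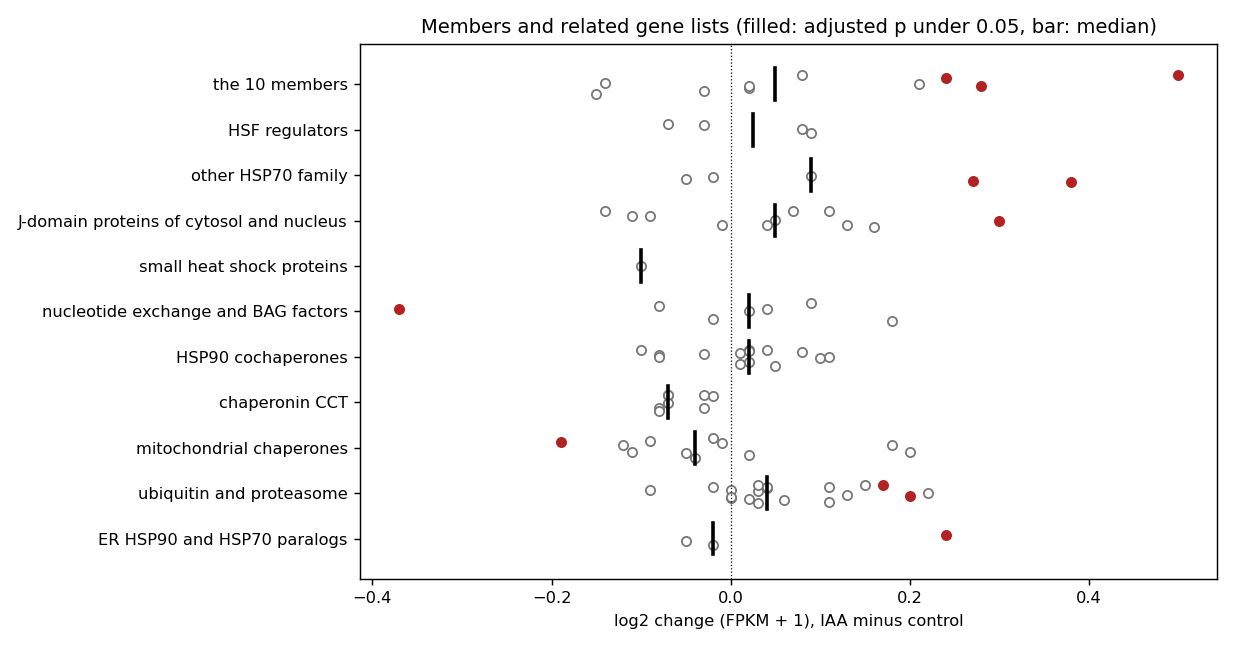
Log2 change (FPKM + 1 scale) for IAA minus control of the 10 members and of the tested genes of 10 related lists, with 1 point per gene, filled at an adjusted p under 0.05, and a bar at each list's median. HSPA1B at 0.50 lies to the right of every listed gene plotted, BAG2 at -0.37 is farthest to the left, and the HSP90 cochaperones and CCT have no filled point. Listed genes below the FPKM filter are not plotted, among them DNAJB4, with 0.55 by voom against 0.50 for HSPA1B.

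Among 5 other HSP70 genes tested by limma, HSPA13 and HYOU1 were higher with IAA, beside 6.64% of all genes. By voom, which tested 8, HSPA12A was higher as well, beside 13.9% of all genes. HSPA12A was below the FPKM filter. Voom gave it 0.39 for IAA minus control (adjusted p = 3.58e-07) and -0.40 for washout minus IAA (adjusted p = 1.90e-07). HSPA13, an HSP70-like protein of microsomes, had 6.37 and 7.56 FPKM in IAA cells, 4.50 and 4.48 FPKM in washout cells and 5.23 and 4.96 FPKM in control cells. It changed by 0.38 for IAA minus control (SE 0.08, limma adjusted p = 0.0437) and by -0.53 for washout minus IAA (adjusted p = 0.0223). HYOU1, an exchange factor of the endoplasmic reticulum (ER), rose by 0.27 with IAA (adjusted p = 0.0368). HSPA5, the ER HSP70 known as BiP, had 132 and 131 FPKM in IAA cells, 107 and 114 FPKM in washout cells and 111 and 111 FPKM in control cells. Its change was 0.24 for IAA minus control (SE 0.05, adjusted p = 0.0380) and -0.25 for washout minus IAA (adjusted p = 0.0334), close in size to those of DNAJB1 and BAG3. From the same list of 3 genes, the ER proteins HSP90B1 and SERPINH1 were not called. They changed by -0.02 (limma adjusted p = 0.832) and -0.05 (adjusted p = 0.678) for IAA minus control.

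Among the J-domain proteins that act in the cytosol and nucleus, limma tested 11 and called 1 higher with IAA, beside 6.64% of all genes. This was DNAJB2, a cochaperone that also binds ubiquitin. It had 6.56 and 6.36 FPKM in IAA cells, 5.46 and 5.18 FPKM in washout cells and 4.95 and 5.15 FPKM in control cells, and changed by 0.30 for IAA minus control (limma adjusted p = 0.0203) and -0.24 for washout minus IAA (adjusted p = 0.0308). DNAJB14, which sits in the ER membrane with its J domain facing the cytosol, fell by 0.22 after washout relative to IAA (adjusted p = 0.0272). By voom 6 of 15 were higher with IAA (DNAJA4, DNAJB2, DNAJB4, DNAJB6, DNAJB14 and DNAJC9), beside 13.9% of all genes. DNAJC2 was lower, beside 10.2% of all genes. After washout 7 were lower than with IAA, the same 6 and DNAJC21, beside 13.6% of all genes. DNAJB4 and DNAJB6 were below the FPKM filter of the limma test, and voom gave them 0.55 (adjusted p = 2.06e-05) and 0.33 (adjusted p = 0.00120) for IAA minus control.

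BAG2 moved against BAG3. This gene, whose product holds back the ubiquitin ligase that works with HSP70, had 3.52 and 3.32 FPKM in IAA cells, 4.57 and 4.75 FPKM in washout cells and 4.76 and 4.63 FPKM in control cells. Its change was -0.37 for IAA minus control (SE 0.04, limma adjusted p = 0.0137) and 0.36 for washout minus IAA (adjusted p = 0.0143). BAG2 was the only gene that limma called of the 7 exchange and BAG factors tested. Over all genes 6.49% were lower with IAA and 7.73% higher after washout than with IAA. By voom HSPBP1, another exchange factor, was higher with IAA (0.25, adjusted p = 0.0304).

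Of 11 tested mitochondrial chaperones and proteases, CLPP, a protease subunit, was lower with IAA (-0.19, limma adjusted p = 0.0486), beside 6.49% of all genes. GRPEL2, an exchange factor of the matrix (-0.29, adjusted p = 0.0238), and DNAJC19, a J-domain protein of the inner membrane (-0.24, adjusted p = 0.0282), were lower after washout than with IAA. Over all genes 6.65% were lower there. Of 19 tested genes of ubiquitin and the proteasome, SQSTM1, an autophagy receptor (0.20, adjusted p = 0.0428), and PSMC2, a proteasome ATPase (0.17, adjusted p = 0.0452), were higher with IAA. Over all genes 6.64% were higher with IAA. By voom GRPEL2 and VCP were among those also higher with IAA, HSPA9 and HSPD1 were lower, and SQSTM1 and VCP were among those lower after washout than with IAA. In washout minus control 0 genes of any list were called by limma or voom.

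The genes most like the summed HSPA1A and HSPA1B were those with the highest Pearson's r of log2(FPKM + 1) with it over the 6 libraries, as a description of 3 groups of 2 points and with no test. They were BCL2L11, a cell death protein of the BCL2 family (0.9990), FOXO4, a forkhead transcription factor (0.9989), TSC1, an inhibitor of mTOR signalling (0.9988), SBNO1 (0.9987) and DNAJB1P1 (0.9984). FOXO4 had 2.05 and 1.89 FPKM in IAA cells, 1.21 and 1.23 FPKM in washout cells and 1.38 and 1.29 FPKM in control cells. Like the HSP70 pair it was highest in the first IAA library and lower in washout than in control cells. Of the members, BAG3 (0.93), DNAJB1 (0.91) and HSPH1 (0.88) came nearest, and 445 tested genes were more like the pair than BAG3 was. HSPA8 (-0.12) and CHORDC1 (0.02) did not follow it, and HSPB1 (-0.80) ran opposite.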

How the data were processed

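The authors deposited FPKM, 1 value per gene and library, for 6 libraries in 3 groups of 2. HISAT, Bowtie2, HTSeq, edgeR and the hg19 build are named in the submitters' processing notes. The sources used here give no versions, roles, annotation or strand. The members and gene lists were chosen with earlier results of these data known. Every member was named. From each list up to 4 called genes with the largest change were named, with HSF1 and HSF2 whatever their values, and so were the 5 genes most like the HSPA1A and HSPA1B sum. HSPA6, CRYAB, HSP90B1, SERPINH1 and listed genes called by voom alone were named after their values were seen.

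Genes with a mean of at least 1 FPKM (8317) entered a limma model (version 3.58.1, R 4.3.3) of log2(FPKM + 1), with a mean per group over all 6 libraries, a trended prior, and 3 residual and 1.81 prior degrees of freedom. Log2 changes understate those of low genes. Ratios are of mean FPKM. P-values are two-sided with Benjamini-Hochberg adjustment over all genes tested.

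Whole reads were recovered from the FPKM steps with gene spans of GENCODE 29 (GRCh38, also used for positions, exons and pseudogenes). Of 21707 genes above 0, 99.86% gave whole reads within 0.02. Of the members, the span fixed DNAJB1, BAG3, CHORDC1 and HSPB1, and the nearest whole solution was taken for the others. The reads went into limma's voom (14783 genes with a mean of at least 10 reads). The pipeline was tested on simulated data, where limma called 71% of 1.5-fold and 93% of 2-fold changes. Changes of the size seen at the members can therefore be missed, and a transcript not called is not shown to be unchanged. Replicates differed by more than counting noise, with a chi-square per gene of 2.98 in IAA, 3.33 in washout and 2.71 in control libraries. Pseudogenes were aligned with blastn 2.17.0, and promoters are RefSeq windows on GRCh38.p14. Alternatives were other pseudocounts, filters and scalings, voom, a replicate block, pooled copies and leaving out each library.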

Additional observations from a re-analysis of the deposited data

How the results depend on the processing

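The 3 members called in IAA minus control were 3 under every scaling, pseudocount and filter tried. They were 2 with only the groups compared, 5 with voom, 6 with copies pooled, and fewer than 3 with a library left out. For washout minus IAA the 4 members became 3 under the median-ratio scaling, a filter of 5 FPKM, no filter and a pseudocount of 0.1. They became 2 in TPM, 1 with only the groups compared, 5 with voom and 7 with copies pooled. With a library left out, fewer than 4 were called. For washout minus control the count of 0 became 2 with voom and 2 with copies pooled. Over all genes, the 1092 called in IAA minus control became 501 at a filter of 5 FPKM, 536 with only the groups compared, 3558 with voom, 3555 with copies pooled and 50 to 534 with a library left out. The 1196 in washout minus IAA became 548, 413, 3722, 3718 and 46 to 421 under the same settings. The 0 in washout minus control became 48 with no filter, 94 with voom and 93 with copies pooled.

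Same-numbered libraries did not deviate together over all genes (correlations 0.01, 0.04 and -0.03), which does not settle what the replicate number stands for. With it as a replicate block, 486 genes and 2 members were called in IAA minus control (DNAJB1 at an adjusted p of 0.0675) and 532 genes and 1 member, HSPA1B, in washout minus IAA.

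Of 501 values of single members under an alternative, 429 kept direction and side of the threshold and 9 turned sign, none of them called. In IAA minus control these were HSP90AA1 (-0.014) and HSP90AB1 (-0.019) in TPM and HSP90AB1 without control replicate 1 (-0.023, and 0.054 without control replicate 2). In washout minus IAA it was HSPA8, in TPM (0.029) and without washout replicate 1 (0.009, and -0.034 without washout replicate 2). In washout minus control they were HSPB1 without control replicate 2 (0.018, and -0.095 without control replicate 1) or washout replicate 2 (0.014), and HSPA1A (0.064) and HSP90AB1 (0.001) without washout replicate 1, which were -0.36 and -0.090 without washout replicate 2. The causes were not tested. Copies pooled and the median-ratio scaling were chosen after seeing the data. HSPA1A had 40 to 81 reads per library, and its washout minus IAA change was -0.15 without washout replicate 1 and -0.57 without washout replicate 2.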
